A study of Junonia coenia with 24 samples.

Results

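In Junonia coenia, the common buckeye butterfly, 5264 chromatin intervals were listed for the forewing that shared no base with any interval listed for the hindwing and that held at least 100 counts over the 12 forewing libraries. They were 1.05% of the 500558 intervals of the forewing table and 2.15% of the 244973 forewing intervals with at least 100 counts. The intervals were chosen by measured values, namely their position in each table and their summed forewing count, so their absence from the hindwing table and their sums are a description and were not tested. A forewing interval without hindwing overlap is a difference between 2 interval lists. It is not a hindwing count of 0, because the hindwing reads at these positions were not analysed here.

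Wing chromatin was profiled by ATAC-seq, in which a hyperactive Tn5 transposase cuts and tags accessible DNA in nuclei and the sequenced fragments pile up where chromatin is open. Nuclei came from whole wing tissue of animals raised at about 27 °C, with no genetic or drug treatment named in the labels. There were 8 groups of 3 libraries: forewing and hindwing, each at the 5th larval instar, in the prepupa, 72 hours after pupation and 6 days after pupation. The labels number the libraries within a group and do not say whether they came from separate animals, so the p-values below rest on a spread between libraries that may be technical only. Whole wings hold several cell types, and in such bulk samples fewer cells with an open site and less opening per cell cannot be told apart.

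Forewing and hindwing are serially homologous appendages, and in insects their difference rests on the Hox gene Ultrabithorax, which is active in the hindwing. Much of the regulatory DNA of the 2 wings is open in both, and accessibility changes during metamorphosis as ecdysone pulses move the wing from larval growth to scale and pigment differentiation. Open intervals away from genes are often enhancers, stretches that bind transcription factors. No genome sequence or gene annotation was used here, so the intervals are given by contig and position, with 1-based starts, and neither genes nor sequences are assigned to them.

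The forewing libraries held between 7733254 and 22020858 counts and the hindwing libraries between 6977525 and 14795457. The 3 forewing libraries labelled 72 h were the deepest, at 15551931 to 22020858 counts, whereas the other 9 held 7733254 to 10036195. A sum of raw counts therefore weighs the 72 h group most. In the hindwing table the libraries labelled prepupa held the highest totals, 11955504 to 14795457 counts. Levels below are CPM, counts scaled to a common library size of 1000000. The library size is the total over the intervals that passed the low-count filter, times a TMM factor that corrects for composition. Stage names are those of the labels, and after the 5th instar they may not mark the same stage in both tables. Over the 136423 intervals matched between the tables, the stage profile (log2 CPM with a pseudocount of 0.5, minus the mean of the wing's 4 groups) of the forewing at 72 h had a Pearson r of 0.511 with the hindwing prepupa and -0.280 with the hindwing at 72 h. The forewing prepupa was closest to the hindwing at 6 d (r = 0.913), and the forewing at 6 d to the hindwing at 72 h (r = 0.871), while the 5th instar groups were closest to each other (r = 0.813). These are descriptions across intervals of shared libraries. The labelled groups were kept, and values set side by side for the wings after the 5th instar carry this limit. The profiles do not show which table's names depart from the true stage, if either does. Rises, falls and their order within the forewing therefore follow the labels, and the order in time was not tested.

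The intervals were short and shallow. Their summed count had a median of 121 (quartiles 108 and 151) and reached 1417, beside a median of 227 in the 239709 forewing intervals with hindwing overlap and the same count minimum. Widths ran from 17 to 1123 bp with a median of 177 bp, against 251 bp for the overlapping intervals and 166 bp for the 104626 of those that held 100 to 200 counts. At the threshold, 809 intervals held 100 to 104 counts, and 969 intervals without hindwing overlap fell just outside it with 95 to 99. Of the former 50.1% had their highest group mean at 72 h, and of the latter 48.8%. At the other end, 569 intervals (10.8%) held at least 200 counts and 65 held at least 400.

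Most of the 5264 intervals were most open in the libraries labelled 72 h, which held only above the count minimum: among all 108988 forewing intervals without hindwing overlap, at any count, 28.3% were most open at 72 h and 36.0% in the prepupa. In the 5264 the group mean CPM was highest at 72 h in 3474 intervals (66.0%), in the prepupa in 792 (15.05%), at the 5th instar in 702 (13.3%) and at 6 d in 296 (5.62%). Among the forewing intervals with hindwing overlap and at least 100 counts, the same shares were 17.7%, 30.6%, 20.8% and 30.8%. Read the other way, 7.57% of the forewing intervals with at least 100 counts that were most open at 72 h lacked hindwing overlap, compared with 1.39% of those most open at the 5th instar, 1.07% for the prepupa and 0.399% for 6 d. The median interval stood at 1.45 CPM at 72 h, 0.879 CPM at the 5th instar, 0.585 CPM in the prepupa and 0.526 CPM at 6 d. Overlapping intervals with 100 to 200 counts had nearly level medians of 1.07, 1.07, 1.12 and 1.05 CPM in the same order of groups.

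**Figure D1:**
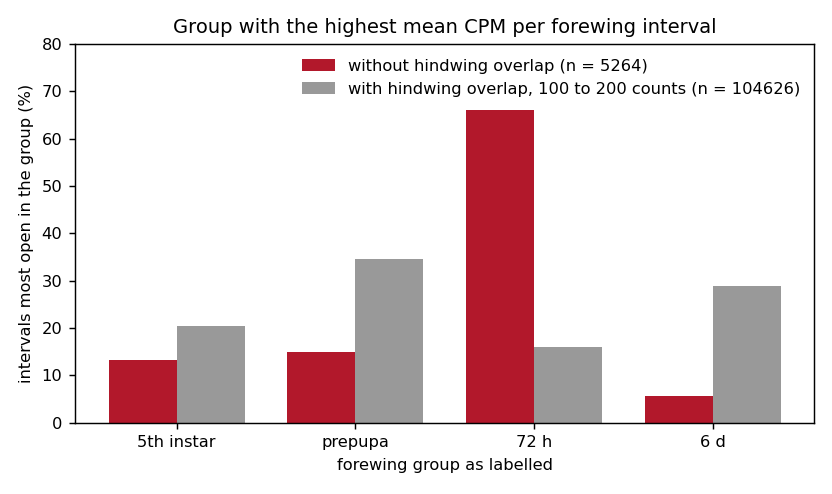
Share of intervals (%) whose highest group mean CPM fell in each forewing group, for the 5264 intervals without hindwing overlap (red) and the 104626 intervals with hindwing overlap and 100 to 200 counts (grey). The red bar reaches 66.0% at 72 h, where the grey bar reaches 16.0%.

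This share moved with the minimum used and with the weight that the minimum gave to the deep 72 h libraries. When the count minimum was replaced by the equivalent minimum on mean CPM, so that each library weighed alike, 4127 intervals qualified, 3863 of them among the 5264. Of these 4127, 54.0% were most open at 72 h, compared with 16.6% of the overlapping intervals that met the same minimum. A minimum of 75 counts over the 9 libraries not labelled 72 h, which cannot select on the 72 h level, left 988 intervals, of which 27.8% were most open at 72 h beside 14.4% of the overlapping ones. That minimum itself favours intervals with counts outside 72 h. The share rose with the count minimum: it was 39.2% among 40624 intervals with at least 50 counts and 95.3% among the 569 with at least 200. Sequencing depth itself was not varied, and whether it entered through the authors' interval calling was not tested.

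As a share of each library's own counts, the 5264 intervals took 0.817%, 0.855% and 0.820% in the 3 libraries at 72 h (mean 0.831 ± 0.0211, SD, n = 3). They took 0.521%, 0.417% and 0.355% at the 5th instar (0.431 ± 0.0842), 0.435%, 0.408% and 0.409% in the prepupa (0.417 ± 0.0154) and 0.238%, 0.248% and 0.268% at 6 d (0.251 ± 0.0152). The 72 h libraries lay above every other library, the 6 d libraries lay below every other library, and the 5th instar and prepupal libraries overlapped. The counterpart set, 4091 hindwing intervals with at least 100 counts and no forewing overlap, took its largest mean share in the hindwing libraries labelled prepupa, the deepest of that table, at 0.669%, 0.443% and 0.659% (0.590 ± 0.128). The hindwing libraries at 6 d, at 0.493%, 0.472% and 0.518%, lay above prepupal replicate 2, so these groups overlapped. By levels over library totals alone, without TMM factors, 59.7% of those hindwing intervals were most open in the prepupa and 3.30% at 72 h. Hindwing intervals with forewing overlap and at least 100 counts gave 25.6% and 19.2%, and on the same scale 63.7% of the 5264 forewing intervals were most open at 72 h. Prepupal replicate 2 of the hindwing stood apart from its group, also in its likeness to the forewing at 72 h (r = 0.552, beside 0.319 and 0.174 for replicates 1 and 3), and it is set aside below where a result rests on it.

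**Figure D2:**
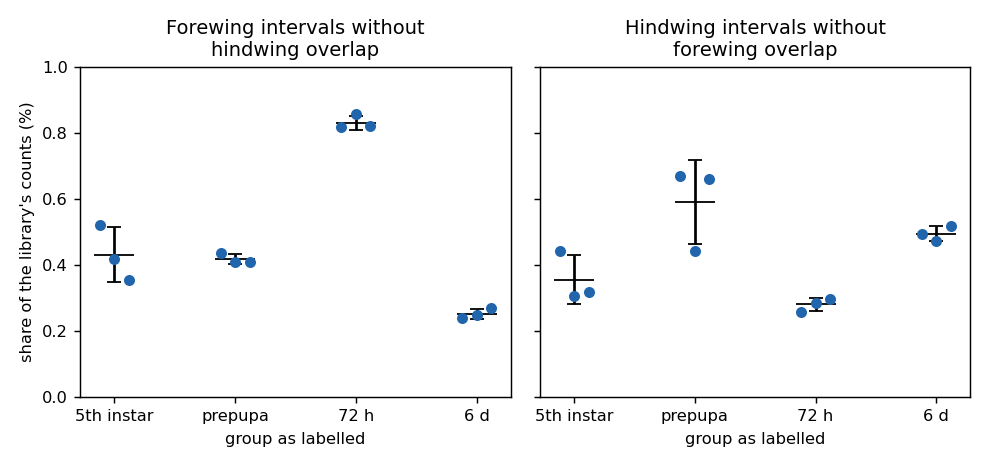
Share of each library's counts (%) that fell in the 5264 forewing intervals without hindwing overlap (left) and in the 4091 hindwing intervals without forewing overlap (right), by group as labelled. Points are libraries, and the horizontal bar and whiskers give the mean and SD of 3 libraries. The left panel is highest at 72 h, 0.817% to 0.855%, and the right panel in the prepupa.

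The strength of the preference varied. In 1585 intervals (30.1%) the 72 h mean was at least 2-fold above every other group, and in 452 (8.59%) at least 4-fold. The overlapping intervals reached these marks in 3.09% and 0.702% of cases. For the 5th instar, the prepupa and 6 d the intervals at least 2-fold above every other group numbered 73, 108 and 48, that is 1.39%, 2.05% and 0.912%, where the overlapping intervals gave 2.73%, 3.59% and 7.89%. These shares were below those of the overlapping intervals in every group but the 72 h one, which is given as a description.

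The 10 intervals with the highest mean CPM were all most open at 72 h, with 74.6% to 96.3% of their counts in those 3 libraries. They were 577 to 1123 bp wide and lay 57 to 4736 bp from the nearest hindwing interval. Their 72 h means ran from 10.5 to 26.9 CPM, and no other group mean exceeded 3.84 CPM. The step tests quoted for single intervals are edgeR quasi-likelihood tests with Benjamini-Hochberg adjustment over all 253438 forewing intervals tested, and changes are log2 ± SE.

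The interval with the most counts, 000086F:608583-609406, held 739, 111 and 514 counts at 72 h. The other 9 libraries held 17, 1 and 2 at the 5th instar, 11, 2 and 4 in the prepupa, and 4, 10 and 2 at 6 d. The lowest 72 h library thus exceeded every other library, but it stood well below its 2 partners, so that the 72 h mean was 26.9 ± 16.9 CPM (SD, n = 3). The interval rose from the prepupa to 72 h by 5.63 ± 0.71 (adjusted p = 6.61e-06) and fell by 5.11 ± 0.71 on the log2 scale from 72 h to 6 d (adjusted p = 1.70e-05). The nearest hindwing interval, 938 bp away, held 81 counts over all 12 hindwing libraries.

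The widest of the intervals, 000016F:1965557-1966679 at 1123 bp, was steadier among the 72 h libraries, with 437, 423 and 235 counts. It held 26, 19 and 17 counts at the 5th instar, 15, 19 and 19 in the prepupa, and 2, 1 and 12 at 6 d. Its mean level at 72 h was 22.2 ± 5.83 CPM, and no library of another group came near the 72 h libraries. It rose into 72 h by 3.72 ± 0.40 (adjusted p = 9.63e-07) and fell by 4.93 ± 0.47 afterwards (adjusted p = 1.52e-07). Between the 5th instar and the prepupa its change of -0.75 ± 0.43 did not pass (adjusted p = 0.196).

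At 000316F:330354-330930 the 72 h libraries agreed most closely, with 398, 311 and 262 counts and 19.7 ± 1.15 CPM. The 5th instar libraries held 7, 4 and 0 counts, the prepupal ones 11, 29 and 7, and the 6 d ones 0, 3 and 0. The group sums at 72 h and 6 d differed 138-fold after division by the library sizes, and counting error alone allows 47.0 to 669 (95% interval; adjusted p = 1.96e-07 in the step test). The nearest hindwing interval lay 1152 bp away and held 65 counts in all.

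Near-empty prepupal libraries marked 000466F:245483-246069. It held 0 counts in each prepupal library and 206, 383 and 224 at 72 h, after 3, 13 and 12 at the 5th instar, and 6, 0 and 2 remained at 6 d. Against a floor of 3 counts over the prepupal group, the 72 h level was at least 176-fold higher (adjusted p = 2.01e-07), and the 5th instar level was at least 13.6-fold higher (adjusted p = 0.000793). In the order of the labels, the interval therefore fell from the larva to the prepupa before it rose. The same order held at 000042F:489148-489768, with 12, 13 and 14 counts at the 5th instar, none in the prepupa, 211, 189 and 142 at 72 h and 4, 0 and 6 at 6 d. There the prepupa to 72 h step was at least 117-fold (adjusted p = 5.73e-08). A hindwing interval of 52 counts lay only 20 bp from it.

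Others of these intervals sat close to hindwing intervals that were themselves well filled. At 000071F:1209003-1209717 the 72 h libraries held 359, 548 and 216 counts, while every library of the other groups held 4 to 16. The neighbouring hindwing interval, 57 bp away and 1918 counts in all, was highest in the libraries labelled prepupa, with 294, 496 and 321 counts. At 000197F:335509-336174 the 72 h libraries held 377, 472 and 184 counts and the others 0 to 24, and a hindwing interval of 763 counts lay 134 bp away. That neighbour was highest at 6 d, with 77, 141 and 83 counts. Beside 000021F:2744598-2745214 a hindwing interval of 991 counts lay 124 bp away and was highest at the 5th instar, with 105, 185 and 168. The hindwing neighbours thus differed in their highest group. Each of these forewing intervals bordered an interval with hindwing counts in every library.

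The members of the top 10 on contigs 000278F, 000144F, 000021F and 000539F had 72 h means of 17.2, 12.2, 12.2 and 10.5 CPM. All 4 also fell from the 5th instar to the prepupa, with log2 changes of -1.39, -2.19, -1.67 and -1.09, before they rose. All 10 intervals rose from the prepupa to 72 h and fell to 6 d at adjusted p of 0.000120 or less. The other 2 of the 3 widest intervals, 000100F:253130-254124 (995 bp) and 000248F:292272-293153 (882 bp), had the same course, with 72 h means of 9.01 ± 1.84 and 9.99 ± 2.39 CPM.

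**Figure D3:**
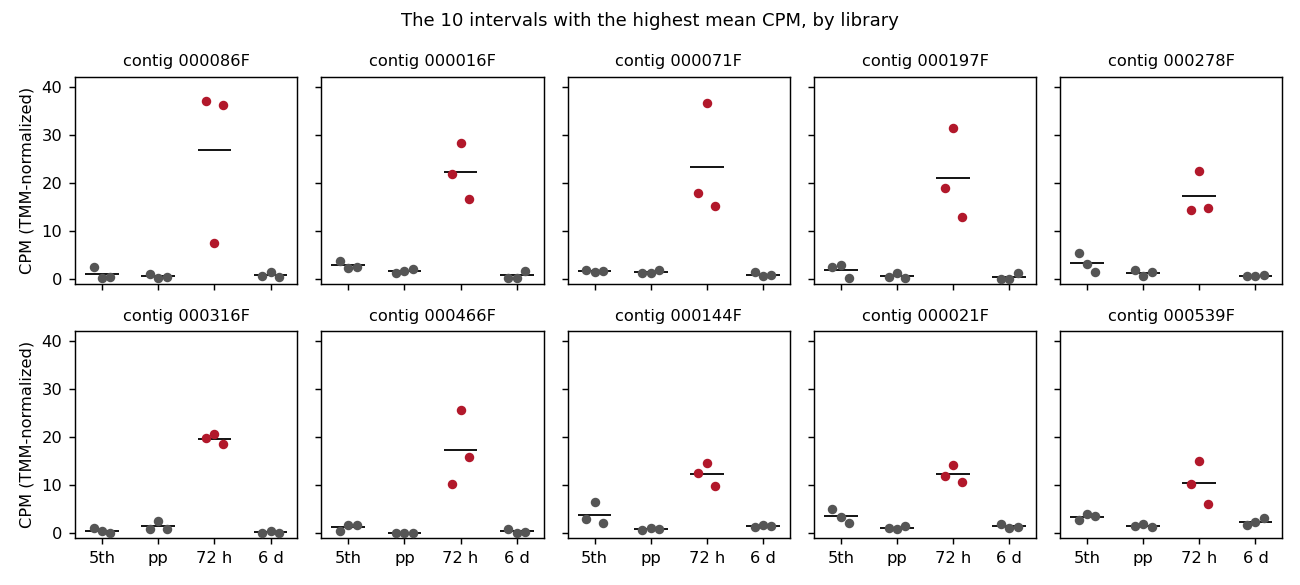
Level in each forewing library (CPM, TMM-normalized) of the 10 intervals with the highest mean CPM, one panel per interval, titled by contig, with groups as labelled (pp, prepupa). Points are libraries and lines are means of 3. The libraries at 72 h (red) lie above the others in each panel, and the panel for 000086F has 1 low library at 72 h.

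Across all intervals the stage tests followed the same pattern. Of the 5264 intervals, 4485 passed the low-count filter and 779 did not. An interval that passes only through a group where it is high had to differ, so these counts are set beside the background and are not support in themselves. A joint test over the 4 stages called 3129 of the 4485, where 52.9% of all tested forewing intervals were called. Of the 3129, 2367 (75.6%) were most open at 72 h, compared with 18.9% of the called overlapping intervals. With no filter the joint test called 3568 of the 5264, beside 39.9% of all forewing intervals. Without the 3 libraries labelled 72 h it called 687 of the 1418 that then passed the filter, beside 48.9% of all intervals tested that way, so their share was then close to the background.

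From the prepupa to 72 h, 2287 intervals rose (51.0% of those tested), beside 18% of all tested intervals that rose. In the other direction 86 fell (1.92%), beside 6.99%. The median rise of the called intervals was 2.76 on the log2 scale, beside 1.88 for the overlapping intervals called. At least 8-fold rises numbered 968, beside 3.54% of the overlapping intervals tested. From 72 h to 6 d, 2146 fell (47.8%), beside 13.1%, and 49 rose (1.09%), beside 14.5%. The median fall was -2.55, beside -1.68, and 758 fell at least 8-fold, beside 1.32%. These 2 steps share the 72 h libraries, and 1537 intervals (34.3% of those tested) were called in both, rising and then falling, beside 5.77% of the overlapping intervals tested. In 3196 intervals (60.7%) the 72 h libraries all lay above the prepupal ones, where 24.3% of all forewing intervals did, and in 3275 (62.2%) the 6 d libraries all lay below those at 72 h, where 21.2% did.

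Between the 5th instar and the prepupa the calls were mostly downward, as they were over all tested intervals. At this step 1185 intervals fell (26.4% of those tested), beside 20.2% of all tested, and 167 rose (3.72%), beside 11.3%. At an unadjusted p below 0.05 in edgeR, 41.3% differed, beside 42.2% of all tested. The median fall of the called intervals was -2.72, beside -1.86 for the overlapping intervals called. At least 8-fold falls numbered 499, beside 3.81% of the overlapping intervals tested. Without replicate 2 or replicate 3 of the 5th instar, or replicate 1 or replicate 2 of the prepupa, the number rising was 96, 102, 110 and 102. Compared directly, the 5th instar and 72 h differed at fewer intervals, a contrast added after the data were seen. At 72 h 858 were higher (19.1% of those tested), beside 5.31%, and 25 were lower (0.557%), beside 5.51%. The first count was 563 without 5th instar replicate 3. The second was 14 and 9 without 5th instar replicates 1 and 2, and 12 and 9 without 72 h replicates 1 and 3.

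Among intervals with at least 2 CPM in the larva, those with the largest fitted falls into the prepupa kept some signal later. At 000262F:572771-572942 the 5th instar libraries held 13, 28 and 8 counts and the prepupal ones none, which put the larval level at least 23.7-fold higher (adjusted p = 1.74e-05). Its counts were 23, 11 and 11 at 72 h and 6, 4 and 4 at 6 d. At 000134F:945032-945262 and 000229F:244607-244782 a single prepupal count remained beside 54 and 52 larval counts, with log2 changes of -5.85 ± 0.94 and -5.78 ± 0.77 (adjusted p = 8.97e-05 and 1.10e-05). Both rose again to 72 h, where they stood at 1.14 ± 0.90 and 0.757 ± 0.287 CPM. These 3 were most open in the larva and ran at their lowest in the prepupa.

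The falls after 72 h with the largest fitted change ended at 0 counts in each 6 d library. A fitted change against an empty group has no fixed size, so each is given as a bound, and the order of these falls among all is not known. At 000032F:236640-237001 the 72 h libraries held 72, 87 and 55 counts, at least 30.3-fold above the floor at 6 d (adjusted p = 3.66e-06), and no other library held more than 4. At 000277F:138844-139141 they held 67, 76 and 61, at least 28.9-fold above it (adjusted p = 3.40e-05), with 2 to 18 counts in the larval and prepupal libraries. At 000168F:151218-151510 they held 6, 76 and 97, at least 25.4-fold above it on the group sums (adjusted p = 0.00111), and 72 h replicate 1 overlapped the larval libraries, which held 12, 11 and 1. A similar peak without a prepupal count stood at 000187F:881340-881828, where the 72 h libraries held 87, 160 and 57 counts and the other 9 together held 5. Its 72 h level was at least 65.8-fold above the prepupal floor (adjusted p = 4.89e-06).

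A minority peaked in the prepupa. Among called intervals with at least 2 CPM in the prepupa and no overlap between the compared libraries, 3 had the largest rises into that stage. They were 000013F:2413889-2414192, 000202F:94923-95279 and 000540F:144451-144749. The first held 1, 0 and 3 counts at the 5th instar and 35, 32 and 24 in the prepupa, and rose by 3.87 ± 0.78 (adjusted p = 0.000809). The second went from 1, 0 and 3 to 29, 23 and 29 counts and rose by 3.72 ± 0.82 (adjusted p = 0.00170). The third went from 3, 1 and 0 to 26, 28 and 26 and rose by 3.71 ± 0.67 (adjusted p = 0.000319). In all 3 the prepupal libraries lay above every other library. All 3 fell again into 72 h, with log2 changes of -2.01, -2.29 and -2.61. The third lay far from hindwing signal, 8255 bp from the nearest hindwing interval.

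Singled out after their values were seen, 5 intervals had a prepupal mean at least 4-fold above every other group: the 3 just named, 000095F:1370694-1370987 and 000474F:142852-143110. The last of these held 27, 23 and 20 counts in the prepupa and no more than 11 elsewhere, at 2.19 ± 0.150 CPM in the prepupa. At 000095F the prepupal libraries held 30, 20 and 19, but 72 h replicate 1 held 28. Only 1 interval, 000290F:56766-56978, was at least 4-fold above every other group at the 5th instar, and there the larval libraries disagreed, with 19, 49 and 0 counts. A further large fall from the prepupa to 72 h, at 000520F:215973-216282, also rested on uneven libraries: 30, 25 and 17 counts in the prepupa stood beside 26, 0 and 0 at 72 h. It fell by 2.17 ± 0.78 (adjusted p = 0.0464) and did not pass in 8 of the 12 fits that left out 1 library, where its adjusted p reached 0.140, nor with DESeq2 on all libraries (adjusted p = 0.339).

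Rises from 72 h to 6 d were few and small in level. At 000246F:677178-677450 the 6 d libraries held 29, 22 and 13 counts and those at 72 h 11, 7 and 11, a rise of 2.34 ± 0.57 (adjusted p = 0.00407). At 000880F:28061-28239 they held 23, 19 and 4 against 4, 8 and 7, a rise of 2.44 ± 0.73 (adjusted p = 0.0165), and at 000901F:1751-1935 16, 17 and 14 against 8, 8 and 0, a rise of 2.76 ± 0.93 (adjusted p = 0.0324). The larval libraries of the last overlapped both groups, with 14, 0 and 26 counts. The raw counts at 000880F overlap between the groups, and the CPM values do not, the 72 h libraries being deeper. The calls at 000880F and 000901F did not pass without certain single libraries, 72 h replicate 1 among them (adjusted p = 0.0828 and 0.0755), and that at 000901F did not pass with DESeq2 either (adjusted p = 0.219). Over all intervals, 21, 28 and 32 rose without 72 h replicates 1, 2 and 3, and 22 without 6 d replicate 1, in place of 49.

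No interval held a mean of at least 2 CPM in all 4 groups. A sum of 100 counts over the forewing libraries is worth 0.731 CPM, and only 10.8% of the intervals held at least 200 counts. Most were therefore too shallow to reach that mark in every group, and nothing about steady openness follows from its absence. Among the overlapping intervals of 100 to 200 counts the medians of the 4 groups, 1.05 to 1.12 CPM as given above, also lay below that mark.

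In 79 intervals (1.501%) a single library held more than 50% of the raw counts. Among the overlapping intervals with at least 100 counts, a set with more counts per interval, the share was 0.0738%. All of these libraries were at 72 h, the deepest group, which a share of raw counts favours: replicate 1 for 36 intervals, replicate 2 for 40 and replicate 3 for 3. The most lopsided, chosen after the values were seen, was 000273F:464001-464388, where 72 h replicate 1 held 240 counts, the other 2 libraries at 72 h none, and the remaining 9 libraries together 8. At 000277F:103725-103903, 72 h replicate 2 held 106 of 110 counts. Replicate 3 dominated 000356F:27175-27406, 000059F:1384203-1384407 and 000011F:1946021-1946192, with 92, 70 and 55 counts, and at the first of these replicate 2 held 77 and replicate 1 none. In 110 intervals (2.09%) 1 library was empty although both partners held at least 10 counts, beside 1.39% of the overlapping intervals with 100 to 200 counts.

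Pairs of libraries of 1 group differed by more than counting noise over these intervals, with a chi-square of 1.75 to 4.10 per interval. The 3 pairs at 72 h gave the highest values, 3.42 to 4.10, at the highest depth. Rank correlations within groups, over intervals and as a description, ran from 0.296 at the 5th instar to 0.656 in the prepupa. The larval pairs gave 0.296 to 0.376 and the 6 d pairs 0.344 to 0.366. The order of the intervals by level was thus only partly shared between larval libraries, and likewise between 6 d libraries.

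Most of the intervals lay beside chromatin that was listed for the hindwing too. The nearest hindwing interval was a median of 164 bp away (quartiles 77 and 384 bp), within 50 bp for 722 intervals (13.7%), within 500 bp for 4265 (81.0%) and within 1 kb for 4784 (90.9%). Hindwing intervals flanked 2198 (41.8%) on both sides within 500 bp. The forewing list is itself dense: the nearest other forewing interval lay a median of 88 bp away, and 95 bp for overlapping intervals with at least 100 counts. It lay within 500 bp for 91.6% and 90.4%. Closeness to a hindwing interval is therefore not shown to be particular to these intervals. The 4091 hindwing intervals without forewing overlap lay farther from the other table, at a median of 347 bp with 65.7% within 500 bp. When every interval with a hindwing interval within 500 bp was left out, 999 remained, of which 76.1% were most open at 72 h. How many of the 5264 are parts of an open region that the 2 lists divide differently was not tested.

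**Figure D4:**
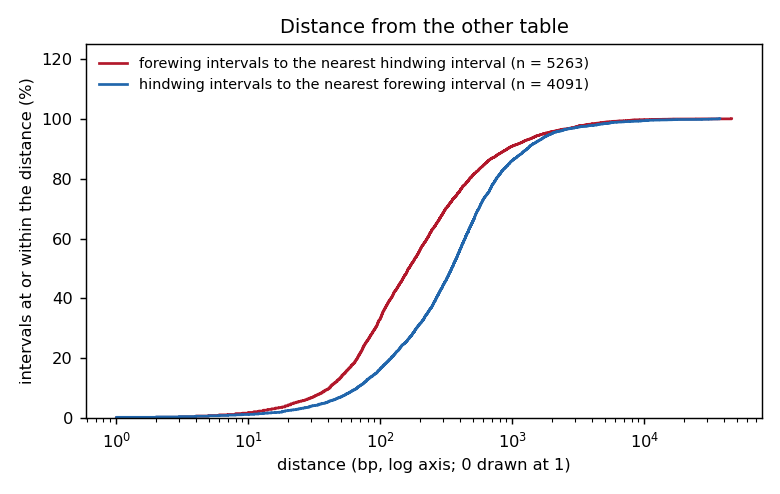
Cumulative share (%) of intervals at or within a given distance (bp, log axis) of the nearest interval of the other wing's table, for forewing intervals without hindwing overlap (red, 5263 on contigs with hindwing intervals) and for the counterpart set of the hindwing (blue, 4091). The red curve lies to the left: its median is 164 bp, that of the blue curve 347 bp.

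Farther out, 61 intervals had no hindwing interval within 5 kb. The farthest, chosen for that distance after it was seen, was 000778F:13286-13492 at 45747 bp, with 33, 62 and 4 counts at 72 h, followed by 000588F:19841-20028 at 41345 bp, with 50, 39 and 24. At the latter the other 9 libraries held 7 counts together, and it rose into 72 h by 4.43 ± 0.77 (adjusted p = 0.000231) and fell by 5.25 ± 0.95 after it (adjusted p = 0.000314). A single interval, 000929F:2952-3117, lay on a contig with no hindwing interval. It was open at the 5th instar (12, 11 and 6 counts) and in the prepupa (17, 17 and 13), fell to 72 h (log2 change -1.62 ± 0.51, adjusted p = 0.0248) and to 6 d (-3.01 ± 1.01, adjusted p = 0.0320), and held 0, 1 and 0 counts there.

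The intervals were spread over 478 of the 964 contigs, and 4759 (90.4%) stood alone. There were 208 runs of 2, 27 of 3 and 2 of 4, where a run is a series of such intervals at most 5 kb apart with no hindwing interval between them. The 4 intervals of the run on contig 000327F, from 362394 to 365140, were all most open at 72 h, at 2.11 ± 0.120, 1.57 ± 0.118, 3.46 ± 0.415 and 1.87 ± 0.121 CPM, and each fell to between 0.190 and 0.241 CPM at 6 d (adjusted p of 0.00924 or less). In counts the 72 h libraries held 43, 33 and 28 at the first of them and 60, 57 and 51 at the third. The run on 000376F, from 366917 to 373262, also had its highest mean at 72 h in all 4 intervals. Replicate 2 led in each, with 115 counts beside 60 and 46 at the interval starting at 367569. Those starting at 366917 and 372769 did not pass the low-count filter and were not tested. At 366917 the 72 h libraries stood at 0.850, 2.33 and 0.704 CPM and overlapped the larval ones, at 1.54, 0.123 and 0.894 CPM. A run of 3 on 000000F, from 3963671 to 3968715, began with an interval of 45 counts in each library at 72 h, 8 in each at 6 d, 16, 9 and 13 at the 5th instar, and 2, 0 and 0 in the prepupa. The prepupa to 72 h rise there was 43.8-fold on the group sums, and counting error alone allows 11.9 to 366 (95% interval; adjusted p = 4.07e-06 in the step test).

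Some contigs carried many more than others. Among the 351 contigs with at least 50 forewing intervals of 100 counts or more, the median held 1.83 of these intervals per 100, and 27 held none. The highest were 000290F with 28.8 per 100 (17 of 59), 000279F with 21.4 (30 of 140), 000258F with 19.4 (13 of 67), 000539F with 19.3 (11 of 57) and 000363F with 17.9 (10 of 56). Of their members 15, 26, 11, 10 and 8 were most open at 72 h. What these contigs hold is not known from the files, and no source used here gives the handling of reads that map to several places.

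Neighbouring shared chromatin often had the same forewing peak. For 4319 of the intervals the forewing table held an interval with hindwing overlap and at least 100 counts within 1 kb. Beside the 2835 of them most open at 72 h, 1625 neighbours (57.3%) were most open at 72 h too, where the same was true of 43.5% of the neighbours of overlapping intervals most open at 72 h. For intervals most open at the 5th instar, in the prepupa and at 6 d the agreement was 41.5%, 39.7% and 48.8%, and among overlapping intervals 41.9%, 54.1% and 43.8%. These are shares over intervals of the same libraries, given with no test.

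Because the intervals have no hindwing count, the wings were compared at the nearest interval that both tables list with a reciprocal overlap of at least 80%. Such a matched interval lay within 5 kb of 4695 of the 5264, at a median distance of 613 bp, and these were 4337 distinct intervals, of which 4054 passed the filter. The neighbourhood was chosen through interval lists made from the same reads, so the comparison is not fully independent of the choice. In edgeR fits over all 24 libraries, 2 of the 4054 differed between the wings in the mean over the 4 stages, both higher in the forewing, and 0.0462% of all 127816 matched intervals were called. The share near the forewing intervals, 0.0493%, was thus close to the background, but it rests on only 2 calls. For the same contrast, 481 of the 4054 (11.9%) had an unadjusted p below 0.05 in edgeR, beside 9.57% of all matched intervals. At the 5th instar edgeR called 0 of the 4054, beside 0.00782% called in all, and DESeq2 called 2. At an unadjusted p below 0.05 there were 189 (4.66%), beside 4.85% of all matched intervals. For the mean over the 4 stages, the median difference, hindwing minus forewing, was -0.10 on the log2 scale over the 4054. It was below 0 in 65.1% of them, beside 50.1% of all matched intervals. For the 5th instar the median difference was -0.07, and 56.8% lay below 0, beside 50.6% of all matched intervals.

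Hindwing prepupal replicate 2 decided the size of the count called for the mean over the stages. Without it, 105 of 4148 were called (2.53%), 104 of them higher in the forewing, beside 1595 of all 130936 tested (1.22%). Leaving out any other single library gave between 1 and 5. DESeq2 on all libraries called 43 (1.06%), beside 612 of all matched intervals (0.479%). Next to intervals most open at 72 h, that library had a median of 3.82 CPM, while replicates 1 and 3 of its group had 3.40 and 3.24.

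Next to the intervals most open at 72 h, the 2778 matched intervals had a median of 4.55 CPM in the forewing at 72 h, and 3.46, 3.64, 3.61 and 3.14 CPM in the hindwing at the 5th instar, in the prepupa, at 72 h and at 6 d. Each forewing library at 72 h, at 4.42 to 4.60 CPM, lay above each of the 12 hindwing libraries, at 2.96 to 3.82 CPM. These matched intervals were chosen beside intervals most open in those same forewing libraries. The choice itself favours a high forewing level at 72 h, so the gap is a description and no test of the wings. Over all matched intervals the medians of the libraries lay between 3.03 and 3.40 CPM. In the 2778, 37.3% had their forewing peak at 72 h, beside 14.8% of all matched intervals, which were not chosen by the peak of a neighbour. The neighbours of overlapping intervals most open at 72 h gave 43.5%, but they were chosen otherwise and held at least 100 counts. The 37.3% and the 43.5% therefore cannot be ranked. Under that other choice the neighbours of the intervals without hindwing overlap gave 57.3%, as stated above. Whether the 37.3% is particular to the intervals without hindwing overlap was not tested.

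**Figure D5:**
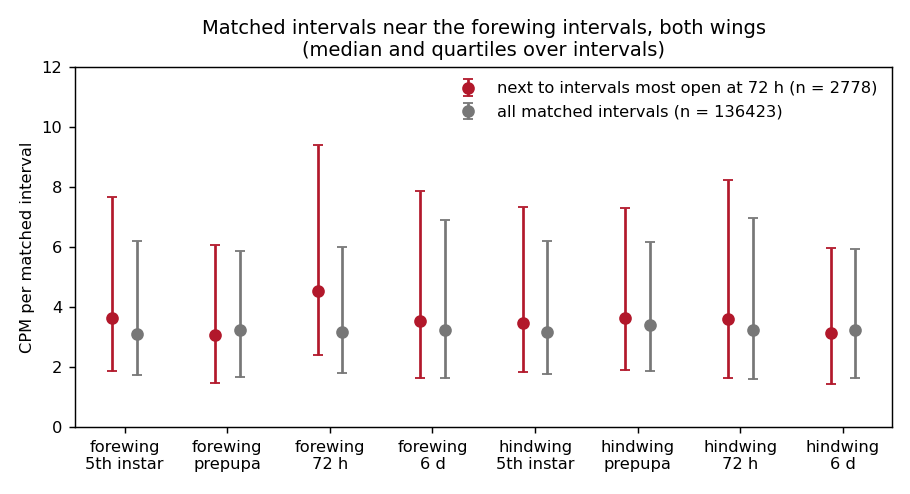
Level (CPM) of matched intervals in the 8 groups as labelled, next to forewing intervals most open at 72 h (red, 2778 intervals) and over all 136423 matched intervals (grey). Points are medians over intervals of the mean of 3 libraries and whiskers are quartiles over intervals, not errors. The red point is highest for the forewing at 72 h, the group by which the red set was chosen, at 4.55 CPM.

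The 2 matched intervals that were called both peaked in the forewing at 72 h. At 000006F:1374523-1375105 the forewing held 136, 182 and 135 CPM at 72 h, 23.6 to 41.4 CPM at the 5th instar and 9.01 to 12.8 CPM in the other 6 libraries. The hindwing held 34.9 CPM in prepupal replicate 2 and 5.51 to 16.1 CPM in the other 11 libraries, so the forewing libraries at 72 h exceeded every hindwing library. The mean difference, hindwing minus forewing, was -1.10 ± 0.15 (SE, adjusted p = 0.00285). The interval without hindwing overlap beside it, 91 bp away at 000006F:1375197-1375256, was 60 bp wide and held 31, 29 and 21 counts at 72 h and 1, 0 and 0 at 6 d. It is therefore a short neighbour of a strong site listed for both wings.

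The second, 000045F:2307755-2308542, held 58.2, 76.9 and 52.9 CPM in the forewing at 72 h and 13.0 to 21.9 CPM in the other forewing libraries. The hindwing libraries held 6.31 to 26.1 CPM, with prepupal replicate 2 again the highest. The difference was -0.81 ± 0.16 (adjusted p = 0.0484), close to the threshold. The interval without hindwing overlap lay 1790 bp away at 000045F:2305690-2305964 and held 40, 20 and 32 counts at 72 h, where the larval libraries held 11, 19 and 9. In CPM the neighbour stood at 1.33 in 72 h replicate 2 and at 1.54, 2.33 and 1.34 in the larval libraries, so that the groups overlapped.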

How the data were processed

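The authors deposited 2 tables of raw read counts per interval, 1 for the 12 forewing and 1 for the 12 hindwing libraries. Bowtie2 and deepTools are named in the submitters' processing notes, without role or version. No source used here gives the interval caller, genome build, read filters or pooling. Every per-sample column was used.

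Interval starts were converted to 1-based positions. Overlap required 1 shared base on the same contig. Counts were tested with edgeR 4.0.16 (R 4.3.3): TMM factors, filterByExpr (minimum count 10, minimum total 15), quasi-likelihood F tests with Benjamini-Hochberg adjustment over the whole table, called at an adjusted p below 0.05. DESeq2 1.42.0 was an alternative. CPM uses the totals of the tested intervals times TMM factors. The code was tested on simulated data. SE is the log2 change divided by the square root of F.

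Samples were grouped by labelled tissue and stage, with replicate numbers from the titles. The titles call the oldest group d7 where the stage label says 6 days. The members and lists were chosen with earlier results of these data known. Intervals were named by rule: the 10 with the highest mean CPM, up to 3 rising and 3 falling per step (called, at least 2 CPM in the higher group, no overlap between libraries), the 3 steadiest with 2 CPM in every group (none met this), the 3 widest, the 3 longest runs and the 5 contigs richest in members. The text marks any other interval as picked once its values were known. For bounds, an empty group was set to 3 counts in all. Intervals and floors cover counting error only.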

Additional observations from a re-analysis of the deposited data

How the results depend on the processing

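The number of intervals without hindwing overlap was 40624 with a minimum of 50 counts, 569 with 200, 3500 and 999 when no hindwing interval within 100 bp and 500 bp was allowed, and 988 with 75 counts over the libraries not labelled 72 h. In the same order the share most open at 72 h was 39.2%, 95.3%, 68.7%, 76.1% and 27.8%, beside 54.0% under the mean CPM minimum and 63.7% with library totals in place of TMM. It ran from 64.0% to 66.4% when single libraries were left out. The cause of these moves was not tested beyond the construction of each alternative.

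Requiring 50 counts in 3 libraries left 232 intervals for the stage tests, of which 230 were called jointly. The steps then gave 8 rising and 77 falling (5th instar to prepupa), 226 and 0 (prepupa to 72 h), 0 and 227 (72 h to 6 d), and 192 and 0 (5th instar to 72 h). Without the 72 h libraries the joint test called 687. With library totals, 530 rose into the prepupa and 846 fell, 11.8% and 18.9% of those tested. The overlapping intervals gave 27.4% and 13.1%, so they rose more often than they fell on that scale. On it, 303 of the intervals without hindwing overlap fell from the prepupa to 72 h and 26 rose from 72 h to 6 d. The median of all tested intervals then moved to 0.50, -0.46 and -0.25 at these steps.

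Leaving out single libraries gave joint counts of 2917 to 3466. Rising and falling counts ran from 96 to 218 and 977 to 1314 (5th instar to prepupa), 1960 to 2680 and 39 to 104 (prepupa to 72 h), 21 to 53 and 1769 to 2436 (72 h to 6 d), and 563 to 1038 and 9 to 27 (5th instar to 72 h). The 86 falls from the prepupa to 72 h became 43 and 44 without prepupal replicates 1 and 2, and 57, 39 and 39 without 72 h replicates 1, 2 and 3. For the mean wing difference the range was 1 to 105, and at the 5th instar it was 0 to 0. The mean wing count was 1 with DESeq2 size factors, 7 with library totals, 1 with no filter, 43 with DESeq2, 5 with the replicate block and 1 with matched intervals within 1 kb only, and DESeq2 called 2 at the 5th instar.

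Replicate numbers did not pair the samples: the 18 correlations between same-numbered libraries of different groups ran from -0.06 to 0.05. With the replicate number as a block, the joint test called 2947. Of 248 alternatives, 177 stayed within 1.5 times the value for a count, or within the 95% binomial interval for the share most open at 72 h. The 18 named step changes gave 294 alternatives on the same side of the threshold, 17 that no longer passed and 0 that reversed. Depth limits the low intervals: with a median of 121 counts over 12 libraries, absence of a change was not detectable at many of them.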
